A study of Monodelphis domestica and Mus musculus with 26 samples.

Results

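The genes described here are 10 regulators of cell division: the cyclins CCNA1, CCNA2, CCNB1, CCNB2, CCND1, CCND2 and CCNE2, the cyclin-dependent kinase CDK1, and the mitotic kinases AURKA and PLK1. They were found by symbol. All 10 are named among 32532 mouse features, and 5 (CCNA1, CCNB1, CCNB2, AURKA and PLK1) among 32251 opossum features and in the opossum bulk tables. The other 5 carry no name there and were not analysed in opossum. The study compared spermatogenesis of a placental and a marsupial mammal. Droplet single-cell RNA libraries (10x Genomics) were prepared from testes, taken apart into single cells, of C57BL6/J mice aged 8 to 16 weeks (3 adult libraries) and of adult gray short-tailed opossums, Monodelphis domestica (3 libraries). Bulk RNA libraries came from opossum testis cell suspensions made with collagenase and trypsin, at 1 month (2 libraries), 2 months (4), 3 months (4), 4 months (3) and in adults (7). Of these 20 libraries, 16 were polyA selected and 4 rRNA depleted, namely 2-month replicates 2, 3 and 4 and adult replicate 2. No group carried a mutation or a drug treatment in the labels.

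Cyclins bind and activate cyclin-dependent kinases, and each class acts at its own step of the cell cycle. D-type cyclins act with CDK4 and CDK6 in G1, E-type cyclins with CDK2 at entry into S phase, A-type cyclins in S phase and G2, and B-type cyclins with CDK1 at entry into M phase. AURKA (Aurora A) matures centrosomes and builds the spindle, and PLK1 (Polo-like kinase 1) promotes entry into and exit from M phase. In the testis, spermatogonia divide by mitosis, spermatocytes replicate once and then divide by meiosis, and spermatids mature without division. Cyclin A2 is the A-type cyclin of dividing body cells, and cyclin A1 is known mainly from male germ cells, where mice without it arrest before the meiotic divisions.

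Cells were clustered without the 10 genes and without 77 further cell-cycle genes, so that their own values did not enter the clustering. Clusters were named after 9 classes by marker genes. Mouse libraries 1, 2 and 3 held 505, 260 and 630 spermatogonia, 995, 1093 and 2010 spermatocytes, 2905, 2942 and 2919 round spermatids, and 1294, 1335 and 2560 elongating spermatids. Opossum libraries 1, 2 and 3 held 36, 123 and 89 spermatogonia, 522, 1941 and 1252 spermatocytes, 228, 857 and 686 round spermatids, and 889, 637 and 639 elongating spermatids. Levels below are in CPM, the UMIs of a gene scaled by all UMIs of that class in that library. Statements on whether the ranges of a gene overlap describe the listed values only. The share of all genes without overlap was not worked out. Depth per germ-cell class and library was 586890 to 23235000 UMIs in mouse and 457140 to 6944900 in opossum. PRM1, the protamine of elongating spermatids, was at 540 to 22844 CPM in 13 class-by-library sums of mouse somatic cells and at 0 to 6491 CPM in 15 such sums of opossum. It was at 2774, 2688 and 22.5 CPM in mouse spermatogonia of libraries 1, 2 and 3, at 252 to 1164 CPM in mouse spermatocytes, and at 0, 24.1 and 0 CPM in opossum spermatogonia. The source of PRM1 outside spermatids was not tested. Libraries shared at most 198 cell barcodes, which was between mouse libraries 1 and 2. Mouse library 3 shared 2 and 0 with these, and 30, 38 and 38 with opossum libraries 1, 2 and 3. Mouse libraries 1 and 2 shared 0 to 2 with opossum libraries. The source of this pattern was not tested. Opossum classes rest on fewer markers, since 23 of 32, 24 of 42, 10 of 29 and 14 of 27 listed genes of the 4 germ-cell classes were found there.

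In mouse, the 2 A-type cyclins had opposite levels in spermatogonia and spermatocytes. CCNA2, at chr3:36619014-36626299 (GRCm39), was at 149, 173 and 178 CPM in spermatogonia of libraries 1, 2 and 3. In spermatocytes it was at 1.90, 0.42 and 2.82 CPM. All spermatogonial values lay above all spermatocyte values. CCNA1, on the same chromosome at chr3:54952890-54963088, was at 5.91, 9.78 and 9.94 CPM in spermatogonia and at 272, 486 and 117 CPM in spermatocytes. It was higher in spermatocytes of every library, highest in library 2 and lowest in library 3. Of the UMIs of both genes, CCNA1 took 4.82% ± 0.862 (SD, n = 3) in spermatogonia and 99.0% ± 1.17 in spermatocytes. It took 99.5% ± 0.457 in round spermatids. CCNA1 rose by 5.67 on the log2 scale from spermatogonia to spermatocytes (SE 0.55, adjusted p = 0.00044, edgeR quasi-likelihood test). CCNA2 fell by 5.89 (SE 0.49, adjusted p = 0.00028). The log2 changes are computed after TMM scaling, which aims to divide out differences in RNA composition between classes, so they differ from the ratios of CPM. That scaling rests on most genes not changing, while 30.6% of genes were called higher and 27.8% lower here.

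The sequences before the transcription starts are shown for the A-type pair, which moved in opposite directions, and for CCNB2 and CDK1, which rose with CCNA1. AURKA and PLK1 were called higher as well but are not printed, and their windows held neither of the 2 motifs marked below. The start used is that of the Ensembl canonical transcript in GENCODE vM39 (GRCm39). For CDK1, CCND2, CCNA1, CCNE2 and AURKA it lies inside the span given for the gene. In CDK1 it is at 69188768, while the gene on the minus strand spans up to 69236595. The window was the 250 bases before this start. The longest stretch of it outside annotated exons is printed, all on the minus strand and written 5′ to 3′. Capitals mark 2 motifs known from cell-cycle promoters, searched on both strands: the CCAAT box (CCAAT, or ATTGG when it lies on the other strand) and the cell cycle homology region (TTTGAA).
Ccna1 chr3:54962544-54962622: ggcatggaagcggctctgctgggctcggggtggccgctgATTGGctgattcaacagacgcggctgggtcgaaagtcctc
Ccna2 chr3:36626300-36626549: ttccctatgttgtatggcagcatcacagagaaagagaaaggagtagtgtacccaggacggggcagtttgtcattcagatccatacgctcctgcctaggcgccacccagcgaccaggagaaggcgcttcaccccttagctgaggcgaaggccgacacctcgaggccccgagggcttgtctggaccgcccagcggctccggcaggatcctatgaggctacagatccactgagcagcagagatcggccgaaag
Ccnb2 chr9:70328875-70329124: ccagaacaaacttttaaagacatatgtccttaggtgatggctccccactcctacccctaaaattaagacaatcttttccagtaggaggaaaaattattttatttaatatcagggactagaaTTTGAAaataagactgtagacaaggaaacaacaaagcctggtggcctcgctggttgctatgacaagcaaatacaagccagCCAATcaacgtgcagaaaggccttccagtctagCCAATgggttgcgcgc
Cdk1 chr10:69188773-69189018: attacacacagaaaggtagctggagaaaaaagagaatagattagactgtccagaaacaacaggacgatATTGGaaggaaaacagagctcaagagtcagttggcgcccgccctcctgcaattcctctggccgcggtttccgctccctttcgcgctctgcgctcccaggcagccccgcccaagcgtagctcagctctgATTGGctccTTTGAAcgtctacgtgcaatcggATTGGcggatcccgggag
Motifs were counted over all 250 bases, exon bases included, in the members and in the windows of all genes alike. Of these bases, annotated exons held 250 in AURKA, 236 in PLK1, 215 in CCNE2, 171 in CCNA1 and 4 in CDK1. A CCAAT box was found in CCNA1, CCNB2 and CDK1, that is in 3 of the 10 members, beside 36.47% of 21757 windows of all genes. TTTGAA was found in CCNB2, CCND2 and CDK1, again 3 of 10, beside 15.55% of all windows. CCNB2 and CDK1 held both, as did 6.049% of all windows. In CDK1 the TTTGAA lay 45 to 40 bases before the start, next to a CCAAT box at 54 to 50 bases. In CCNB2 it lay 129 to 124 bases before the start, upstream of CCAAT boxes that begin 49 and 16 bases before it. The printed stretch of CCNA1 is short because of annotated exons of Ccna1 and 4931419H13Rik. A match is a description of these letters and not a measured site.

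Among mouse germ cells, CCND1 and CCND2 were highest in spermatogonia. CCND1 (chr7:144483668-144493662) was at 133, 136 and 218 CPM in spermatogonia and at 1.28, 0.76 and 4.82 CPM in spermatocytes. CCND2 (chr6:127102125-127129156) was at 72.8, 43.6 and 46.7 CPM in spermatogonia and at 0.29, 0.054 and 0.98 CPM in spermatocytes. Neither gene's ranges overlapped, and in library 2 the spermatocyte level of CCND2 was under that of 3 UMIs. CCND1 fell by 5.59 (log2, SE 0.40, adjusted p = 0.00018) and CCND2 by 6.27 (SE 0.67, adjusted p = 0.00063). CCNE2 (chr4:11190303-11204947), an E-type cyclin, was at 79.0, 94.9 and 98.3 CPM in spermatogonia and at 34.9, 17.8 and 61.6 CPM in spermatocytes. These ranges did not overlap either, but after TMM scaling its change was -0.52 (SE 0.32, adjusted p = 0.20).

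The B-type cyclins differed from each other. CCNB1 (chr13:100915153-100923116) was at 223, 245 and 158 CPM in spermatogonia and at 159, 311 and 47.1 CPM in spermatocytes, with overlapping ranges and a log2 change of 0.26 (SE 0.50, adjusted p = 0.67). CCNB2 (chr9:70314966-70328874) was at 95.7, 125 and 116 CPM in spermatogonia and at 316, 412 and 232 CPM in spermatocytes. It was higher in spermatocytes of every library and rose by 2.36 (log2, SE 0.31, adjusted p = 0.0013).

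All 3 kinases rose. CDK1 (chr10:69170976-69236595) went from 103, 100 and 119 CPM in spermatogonia to 161, 195 and 173 CPM in spermatocytes (log2 change 1.59, SE 0.26, adjusted p = 0.0029). AURKA (chr2:172198109-172212849) went from 73.2, 49.6 and 60.1 CPM to 415, 630 and 274 CPM (log2 change 3.61, SE 0.43, adjusted p = 0.00087). PLK1 (chr7:121758646-121769108) went from 77.0, 88.7 and 74.9 CPM to 130, 213 and 52.7 CPM (log2 change 1.38, SE 0.46, adjusted p = 0.037). The ranges of CDK1 and AURKA did not overlap. Those of PLK1 did, because spermatocytes of library 3 lay below all spermatogonia.

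In this comparison 5 of the 10 members were called higher and 3 lower, where called means an adjusted p under 0.05 and a log2 change of at least 1. Of all 14829 genes tested, 30.6% were called higher and 27.8% lower. The members' median change was 0.82, and that of all genes was -0.0018. With library totals in place of TMM factors, the median of all genes moved to -0.88 and the share of higher calls among all calls from 52.4% to 32.8%. Then CDK1 (0.71) and PLK1 (0.50) lost their calls, CCNE2 was called lower (-1.40) and CCNB1 turned to -0.63. PLK1 also lost its call without library 1 (adjusted p = 0.12) or library 2 (adjusted p = 0.054).

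**Figure D1:**
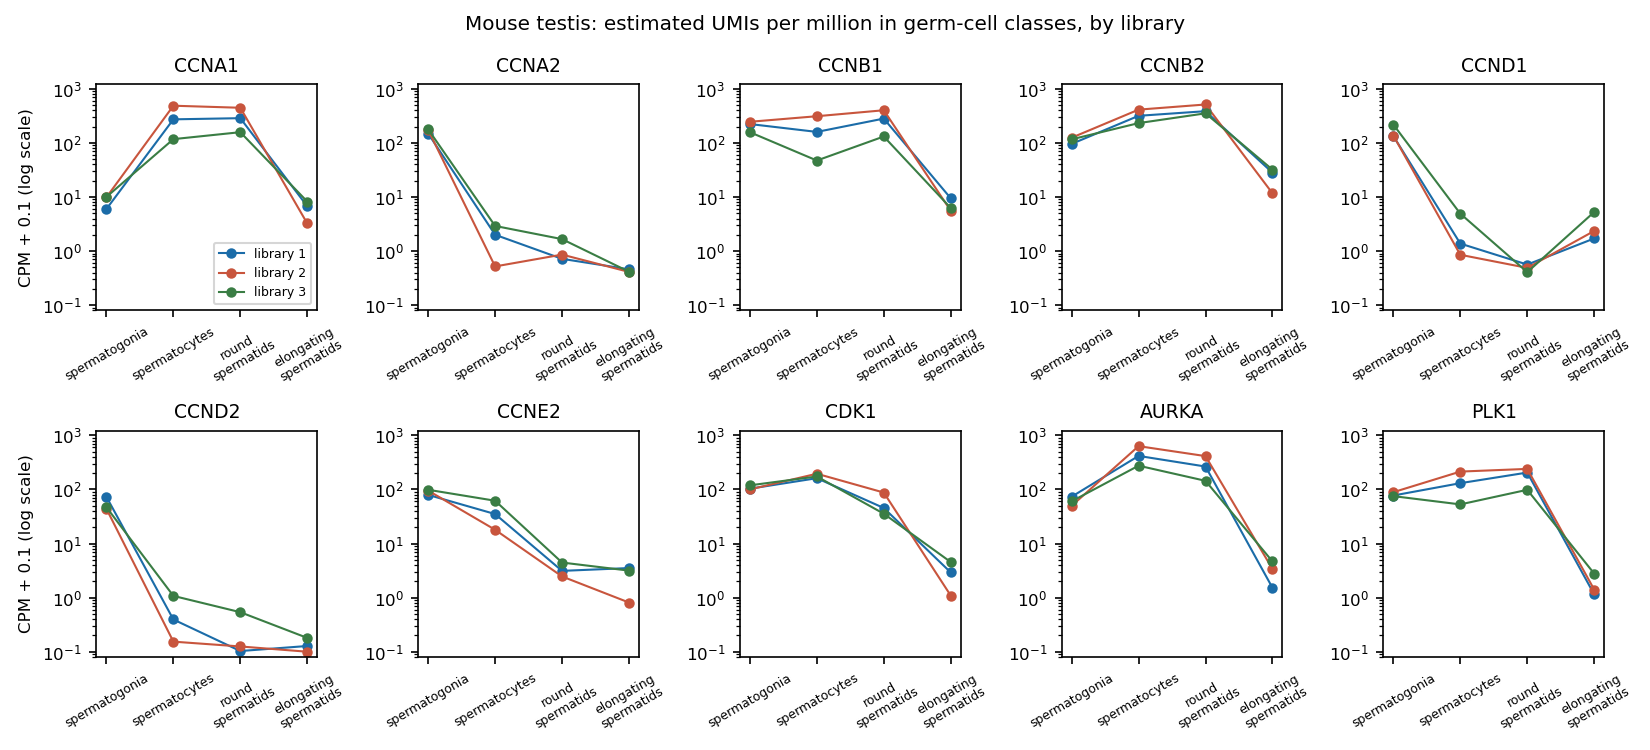
Level of each of the 10 genes in 4 mouse germ-cell classes, as CPM + 0.1 on a log axis, with 1 point per class and library and a line joining the points of a library. CCNA2, CCND1 and CCND2 are high in spermatogonia, where CCNA2 has a mean of 167 CPM, and CCNA1 in spermatocytes (292 CPM) and round spermatids (297 CPM).

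Within the classes the genes were not level. The 2 clusters of mouse spermatogonia differed in their D-type cyclin. Cluster 21 (150 cells), with ZBTB16, a gene of undifferentiated spermatogonia, at 362 CPM, held CCND2 at 270 ± 65.0 CPM (SD, n = 3 libraries) and CCND1 at 45.4 CPM. Cluster 8 (1245 cells), with STRA8, a gene induced by retinoic acid, at 415 CPM, held CCND2 at 12.4 ± 4.30 CPM and CCND1 at 185 ± 55.5 CPM. CCNA2 was at 83.2 CPM in cluster 21 and 182 CPM in cluster 8, and CCNE2 at 20.036 and 104 CPM. CCNA1 was at 0.30 and 10.0 CPM.

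In spermatocytes the earliest cluster was number 7 (1255 cells), with the recombinase gene DMC1 at 348 CPM. It still held CCNA2 at 28.1 ± 23.8 CPM and had CCNE2 at 135 ± 24.9 CPM, above both spermatogonial clusters. Its cells were 414, 32 and 809 of libraries 1, 2 and 3. Cluster 14 (772 cells), with the piRNA-binding gene PIWIL1 at 616 CPM, held CCNA1 at 44.1 ± 7.69 CPM, AURKA at 200 CPM, CCNB1 at 10.6 CPM and PLK1 at 9.89 CPM. Cluster 6 (1329 cells) held CCNA1 at 500 ± 135 CPM, AURKA at 678 ± 78.4 CPM, CCNB1 at 282 ± 128 CPM, CDK1 at 267 ± 82.4 CPM and PLK1 at 233 ± 60.6 CPM. In cluster 6 CCNE2 was at 5.21 CPM. Cluster 6 made up 245 of 995 spermatocytes in library 1, 766 of 1093 in library 2 and 318 of 2010 in library 3. Library 2 also had the highest spermatocyte levels of CCNA1, CCNB1, AURKA and PLK1. The part of this cell make-up in the class levels was not tested.

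**Figure D2:**
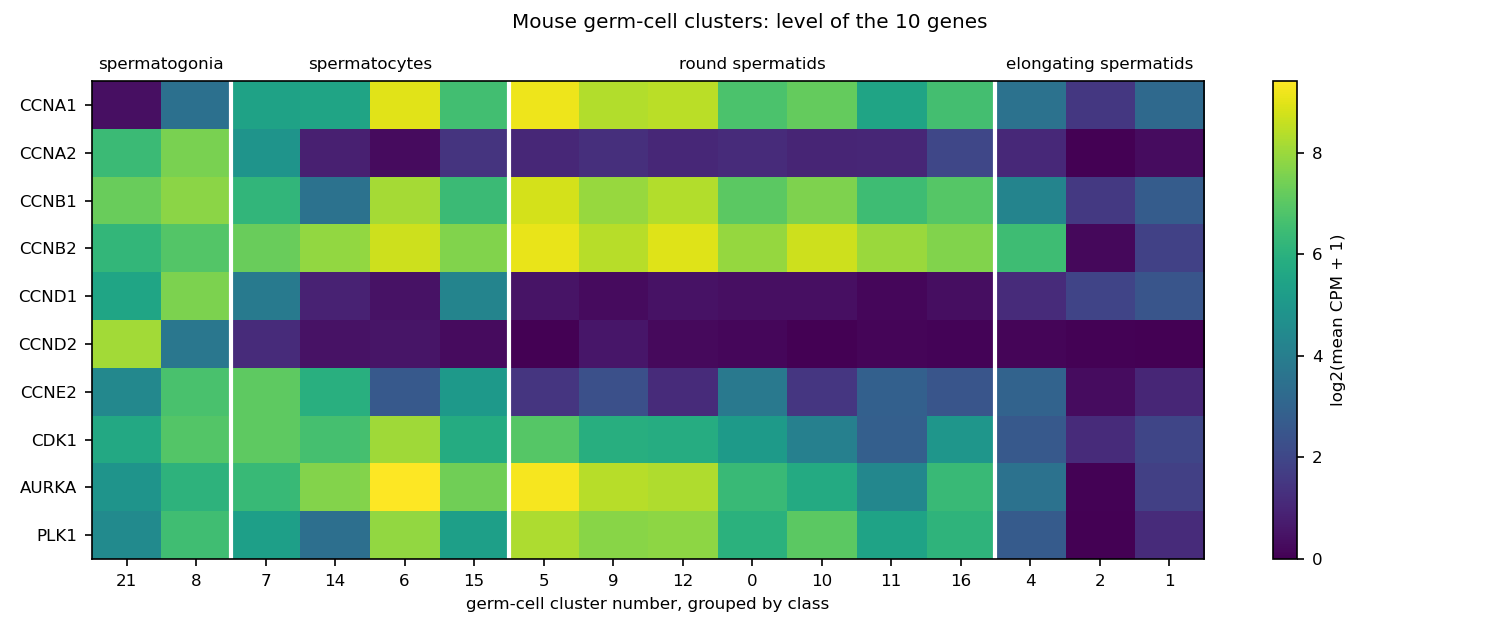
Mean level over libraries of the 10 genes in each mouse germ-cell cluster, as log2(mean CPM + 1) on a colour scale, with cluster numbers on the x axis, grouped by class. CCND2 is highest in spermatogonial cluster 21 (270 CPM), CCNE2 in the early spermatocyte cluster 7 (135 CPM), and CCNA1 in clusters 6 and 5 (500 and 571 CPM).

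From mouse spermatocytes to round spermatids, CDK1 and CCNE2 fell, and 5 of 9 members tested were not called. CCNA1 was at 286, 446 and 158 CPM in round spermatids, within the range of spermatocytes, with a log2 change of 0.28 (adjusted p = 0.30). AURKA was at 264, 412 and 144 CPM (change -0.57, adjusted p = 0.027), CCNB2 at 385, 512 and 352 CPM (0.56, adjusted p = 0.040) and PLK1 at 205, 239 and 98.2 CPM (0.73, adjusted p = 0.034). These 3 passed the p threshold but not the fold. CDK1 was at 45.2, 87.3 and 35.4 CPM and CCNE2 at 3.02, 2.36 and 4.35 CPM, both below every spermatocyte value. CDK1 fell by 1.60 (log2, SE 0.24, adjusted p = 0.00090) and CCNE2 by 3.27 (SE 0.33, adjusted p = 0.00015).

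CCNB1, the main B-type partner of CDK1, was at 281, 401 and 131 CPM in round spermatids and was called higher (1.04, SE 0.28, adjusted p = 0.014). CCND1 was called lower (-1.90, SE 0.66, adjusted p = 0.036) at 0.46, 0.39 and 0.31 CPM. CCNA2, at 0.62 to 1.57 CPM, had a change of -0.47 (adjusted p = 0.49), and CCND2 was too low to test. Of 9 members tested, 1 was called higher and 3 lower, beside 29.3% and 25.2% of 15724 genes. CCNB1 lost its call without the library block (0.72, adjusted p = 0.46), at 2000 UMIs per cell (0.81, adjusted p = 0.10) and without clusters mostly from 1 library (0.79, adjusted p = 0.061). It missed only the fold with library totals (0.88), with counts rounded up (0.99), at Leiden resolution 2 (0.92) and without library 3 (0.77). CCND1 lost its call in DESeq2 (adjusted p = 0.071) and without library 3 (adjusted p = 0.24).

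Round spermatid clusters ran from high to low levels of CCNA1 and AURKA. Cluster 5 (1364 cells, 971 of them of library 2) held CCNA1 at 571 ± 116 CPM, AURKA at 621 ± 45.2 CPM, PLK1 at 301 ± 66.9 CPM and CDK1 at 122 CPM. It was named on 3 markers only, with the acrosomal gene ACRV1 at 121 CPM. Cluster 12 held CCNA1 at 348 ± 57.4 CPM and AURKA at 309 ± 65.0 CPM, and cluster 10 held 143 ± 12.5 and 52.8 CPM. Cluster 11 held 44.3 ± 9.74 and 19.3 CPM, with ACRV1 at 760 CPM. Cluster 0 (2403 cells, 1762 of them of library 1) was led by hemoglobin genes and held CCNA1 at 106 ± 29.5 CPM. Leaving out clusters named on fewer than 5 markers takes out cluster 5 and cluster 9 (1125 cells, 960 of them of library 3). The change of CCNA1 was then -0.23 and that of CCNB1 0.75 (adjusted p = 0.062). AURKA was then called lower (-1.44, adjusted p = 0.00080), as it was without clusters mostly from 1 library (-1.40, adjusted p = 0.0022).

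In mouse elongating spermatids CCNA1, both B-type cyclins and all 3 kinases fell. CCNA1 was at 6.66, 3.15 and 8.14 CPM (log2 change -4.24, SE 0.52, adjusted p = 7.2e-05). CCNB1 was at 9.38, 5.47 and 6.17 CPM (-3.83, SE 0.40) and CCNB2 at 28.1, 11.6 and 31.9 CPM (-2.88, SE 0.41). AURKA was at 1.42, 3.29 and 4.56 CPM (-5.13, SE 0.53), PLK1 at 1.05, 1.31 and 2.68 CPM (-5.39, SE 0.55), and CDK1 at 2.82, 0.99 and 4.45 CPM (-2.997, SE 0.60). All 6 genes were called lower. Their CPM ranges did not overlap between the classes, but CPM is not TMM scaled, and the share of all genes without overlap is not given. CDK1 lost its call at Leiden resolution 2 (-1.73, adjusted p = 0.059). Of 15173 genes, 35.5% were called lower and 29.1% higher. CCND1 was called higher (4.02, SE 0.60, adjusted p = 0.00023), at 1.61, 2.26 and 5.18 CPM against 0.31 to 0.46 CPM in round spermatids. CCNE2, at 3.42, 0.71 and 3.05 CPM, had a change of 0.75 (adjusted p = 0.20), which was -0.57 with library totals. CCNA2 and CCND2 were too low to test. With library totals the median change of all genes moved from -0.34 to -1.66 and the share of higher calls from 45.1% to 21.6%, and CCND1 was still called higher (2.71). Cluster 4, the elongating cluster with the most ACRV1 (437 CPM), still held CCNB2 at 88.8 ± 17.1 CPM, while CCNA1 was at 10.8 CPM there.

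In somatic cells of the mouse, CCNA2 was at 0 to 3.68 CPM over the 13 sums. CCND2 was at 145 CPM on average in peritubular or stromal cells and 96.2 CPM in endothelial cells, and CCND1 at 162 CPM in endothelial cells, near its spermatogonial mean of 162 CPM. CCNA1, AURKA, CCNB1 and CCNB2 reached 114, 114, 133 and 236 CPM in single sums. CDK1 was at 63.0, 99.4 and 119 CPM in Sertoli cells of libraries 1, 2 and 3, a mean of 93.9 beside 107 CPM in spermatogonia. These values stand beside the PRM1 levels given above. The part of RNA from other cells in these levels was not tested.

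The further cell-cycle genes, a list of 77 made beside the members, had 22 called higher and 20 lower from mouse spermatogonia to spermatocytes, beside 30.6% and 27.8% of all genes, with a median change of 0.028 beside -0.0018. Regulators of the anaphase-promoting complex, which ends M phase, had 5 of 9 higher and 1 lower, with a median change of 1.04. FBXO43, a meiotic inhibitor of that complex, rose from 3.55 to 62.5 CPM (log2 change 5.18). CNTD1, a cyclin-like protein needed for meiotic crossovers, rose from 13.0 to 184 CPM (4.64). Of the proliferation genes, 0 of 7 were called higher and 4 lower, with a median change of -2.37. The replication licensing gene MCM2 fell from 146 to 1.93 CPM (-5.67). CCNG1, a cyclin induced by p53, fell from 76.7 to 1.57 CPM (-4.72).

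Into round spermatids, 5 of the 70 list genes tested were called higher and 30 lower, beside 29.3% and 25.2% of all genes, with a median change of -0.69 beside -0.042. CCND3, the D-type cyclin outside the members, rose from 2.79 to 92.1 CPM (log2 change 5.36). CKS2, a small CDK-binding protein needed in meiosis, fell from 678 to 44.6 CPM (-3.65). The crossover factor CCNB1IP1 fell from 21.5 to 0.97 CPM (-4.16) and the centrosomal scaffold CEP192 from 78.0 to 5.82 CPM (-3.80). At elongation 7 of 66 were called higher and 42 lower, beside 29.1% and 35.5% of all genes, among them 6 of the 7 partners of Aurora kinases and PLK1. INCENP, the scaffold of the chromosomal passenger complex, fell from 57.1 to 0.48 CPM and TPX2, the activator of AURKA, from 29.7 to 0.31 CPM. The checkpoint kinase BUB1B fell from 20.3 to 0.25 CPM. The CDK inhibitor CDKN1C rose from 10.8 to 206 CPM (log2 change 5.74).

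In opossum, CCNA1 (opossum chromosome 4, 309552801 to 309640290 in the bulk tables) was again low in spermatogonia and high in spermatocytes. It was at 11.2, 12.9 and 2.55 CPM in spermatogonia of libraries 1, 2 and 3 and at 174, 163 and 182 CPM in spermatocytes. It was higher in spermatocytes of every library, and its spermatocyte levels lay closer together than those of mouse. Its spermatogonial level in library 3 was under that of 3 UMIs (6.56 CPM), so the spread of its spermatogonial levels is uncertain. CCNA1 rose by 4.39 (log2, SE 0.29, adjusted p = 1.6e-08). CCNB2 (chromosome 1, 161629397 to 161655439) went from 6.81, 24.99 and 16.7 CPM to 33.5, 55.7 and 54.3 CPM and also rose (1.80, SE 0.29, adjusted p = 9.1e-05).

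The other members did not pass both thresholds in opossum. CCNB1 (chromosome 3, 35424349 to 35432886) was at 96.6, 121 and 114 CPM in spermatogonia and at 55.4, 58.5 and 31.4 CPM in spermatocytes. Every spermatocyte value was the lower, with a change of -0.89 (SE 0.21, adjusted p = 0.0016), short of the fold. AURKA (chromosome 1, 487921030 to 487940303) was at 47.2, 71.4 and 33.2 CPM in spermatogonia and at 59.8, 65.6 and 52.7 CPM in spermatocytes, with overlapping ranges (0.52, adjusted p = 0.050). PLK1 (chromosome 6, 120296969 to 120315984) was at 25.1, 36.0 and 20.7 CPM in spermatogonia and at 32.6, 25.6 and 10.1 CPM in spermatocytes (0.02, adjusted p = 0.95). Thus 2 of 5 were called higher and 0 lower, beside 35.5% and 19.2% of 12258 genes. Spermatocyte cluster 14 (595 cells) held KIT, a receptor of differentiating spermatogonia, at 105 CPM. CCNB1 was called lower without that cluster (-1.45, adjusted p = 4.2e-05), at Leiden resolution 2 (-1.80), with the members in the clustering (-1.82), with library totals (-1.17) and without library 1 (-1.09).

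From spermatocytes to round spermatids of the opossum, PLK1 and AURKA fell. PLK1 was at 1.63, 1.47 and 0 CPM in round spermatids, where library 3 held no UMI of it, which allows up to 2.37 CPM. It fell by 3.74 (log2, SE 0.68, adjusted p = 0.0017). AURKA was at 15.4, 12.6 and 14.2 CPM, below every spermatocyte value, and fell by 1.59 (SE 0.37, adjusted p = 0.0056). CCNA1 was at 73.9, 49.7 and 79.6 CPM, also below every spermatocyte value, with a change of -0.89 (adjusted p = 0.030) that missed the fold. CCNB1 was at 13.5, 28.3 and 20.3 CPM (-0.69, adjusted p = 0.18). CCNB2 was at 57.1, 73.3 and 60.0 CPM, above every spermatocyte value (0.93, adjusted p = 0.039). Of the 5, 0 were called higher and 2 lower, beside 29.0% and 30.8% of 15030 genes. CCNA1 was called lower with no low-count filter (-1.12), with the members in the clustering (-1.08) and without spermatocyte cluster 14 (-1.30), and CCNB2 was called higher at 2000 UMIs per cell (1.22, adjusted p = 0.019). With library totals 4 were called, CCNA1 (-1.38) and CCNB1 (-1.19) in addition, and the share of higher calls among all genes called moved from 48.5% to 37.2%.

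In opossum elongating spermatids the levels depended on the library. CCNA1 was at 20.8, 1.07 and 8.91 CPM, below every round spermatid value, and fell by 1.91 (log2, SE 0.71, adjusted p = 0.019). CCNB2 was at 25.2, 10.7 and 29.8 CPM (-0.17, adjusted p = 0.86), CCNB1 at 15.9, 4.203 and 5.65 CPM (-0.01, adjusted p = 0.99) and AURKA at 22.2, 2.80 and 6.87 CPM (0.58, adjusted p = 0.56). PLK1 was too low to test. Of 4 tested, 0 were called higher and 1 lower, beside 21.7% and 22.3% of 12200 genes. The CPM of CCNB2 did not overlap between the classes although its scaled change was near 0. With library totals the median change of all genes moved from 0.04 to -1.46 and the share of higher calls from 49.3% to 16.5%, and CCNB2 (-1.66) was called beside CCNA1 (-3.41).

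Library 1 was highest for CCNA1, CCNB1 and AURKA, and it held 745 of the 1070 cells of elongating cluster 6. That cluster held CCNA1 at 61.1 ± 20.7 CPM, CCNB1 at 52.6 ± 3.73 CPM and AURKA at 58.1 ± 11.1 CPM. Class means of AURKA and CCNB1 were 14.1 and 20.7 CPM in round spermatids and 59.4 and 48.4 CPM in spermatocytes. For AURKA and CCNB1, cluster 6 thus lay near spermatocytes, which goes against its name. Its CCNA1 lay near the round spermatid mean of 67.7 CPM. The elongating cluster 16 held CCNA1 at 0.13 CPM and AURKA at 0.78 CPM. Leaving out clusters that come mostly from 1 library takes out elongating clusters 6, 15 and 25, and the class is then cluster 16 alone (457 cells). In that setting CCNA1 fell by 7.93 (adjusted p = 0.0017) and AURKA fell by 4.10 (adjusted p = 0.048). These are changes to the low levels of cluster 16, so their sizes are uncertain and do not describe the whole class. The call of CCNA1 was lost without library 2 (adjusted p = 0.16) or library 3 (adjusted p = 0.070).

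**Figure D3:**
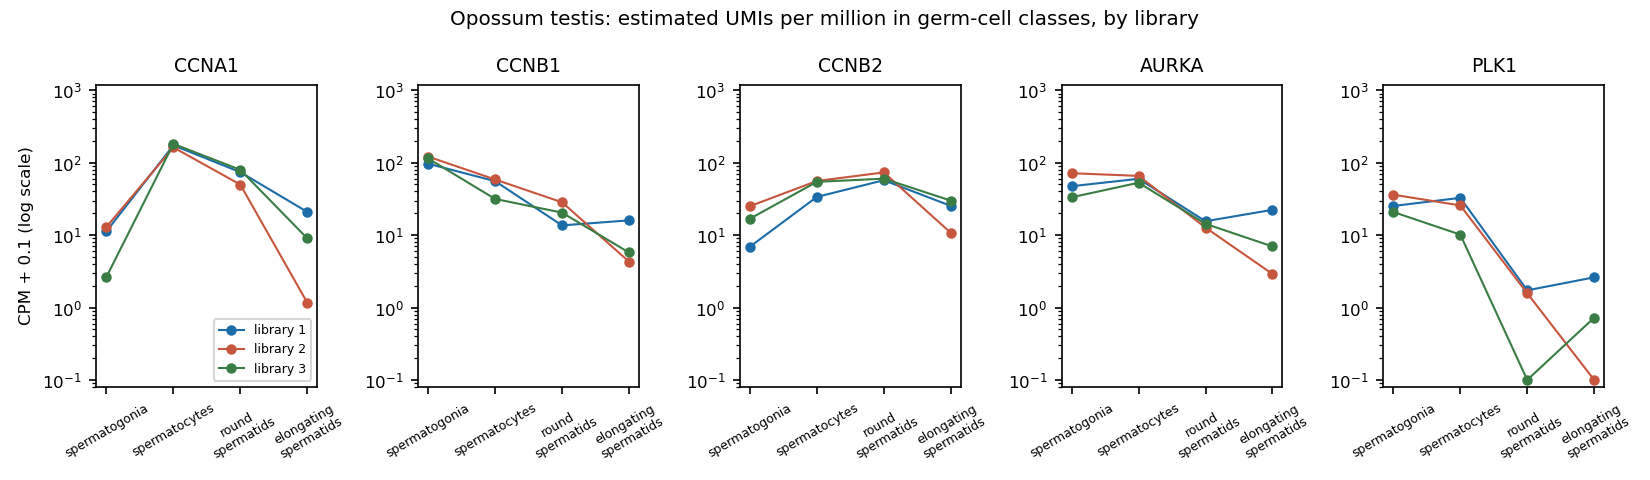
Level of the 5 genes named in opossum in 4 opossum germ-cell classes, as CPM + 0.1 on a log axis, with 1 point per class and library and a line joining the points of a library. CCNA1 has means of 8.86, 173, 67.7 and 10.3 CPM from spermatogonia to elongating spermatids, and PLK1 has 1.03 CPM in round spermatids.

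Across opossum spermatocyte clusters CCNA1 was at 29.9 ± 8.78 CPM in cluster 14, 180 ± 36.8 CPM in cluster 7, 94.3 CPM in cluster 11 and 287 ± 30.1 CPM in cluster 3. CCNB1 was at 113 ± 14.1 CPM in cluster 14, 15.0 ± 9.96 CPM in cluster 7, 79.1 ± 56.7 CPM in cluster 11 and 33.5 CPM in cluster 3. AURKA was highest in cluster 11 (123 ± 25.2 CPM), where CCNB2 was at 92.2 CPM. Round spermatid cluster 4 held CCNA1 at 107 ± 10.2 CPM. In opossum somatic cells CCNA1 was at 4.61 to 38.1 CPM over the 15 sums, AURKA at 2.89 to 34.1 CPM and PLK1 at 0 to 12.5 CPM.

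Of the 58 list genes named in opossum, 53 were tested from spermatogonia to spermatocytes, of which 6 were called higher and 11 lower, beside 35.5% and 19.2% of all genes. FBXO43 and CNTD1 were under the level of 3 UMIs in spermatogonia (0.11 and 0.22 CPM on average, with 2.54 to 6.56 CPM worth 3 UMIs) and at 24.96 and 24.1 CPM in spermatocytes, and both were called higher. The CDK inhibitor CDKN1A (p21) fell from 241 to 3.34 CPM (log2 change -5.85) and the transcription factor E2F2 from 27.2 to 0.54 CPM. Into round spermatids 2 of 51 were called higher and 32 lower, beside 29.0% and 30.8% of all genes, with a median change of -1.98 beside -0.14. The replication clamp PCNA went from 23.3 to 0.21 CPM, the replication helicase subunit MCM6 from 43.7 to 0.86 CPM and the transcription factor MYBL2 from 12.04 to 0.016 CPM. Values under about 2.60 CPM in round spermatids are worth at most 3 UMIs in the smallest library. PLK2, a relative of PLK1, rose from 10.99 to 182 CPM (log2 change 4.91). At elongation 5 of 35 were called higher and 0 lower, beside 21.7% and 22.3% of all genes. They included CDKN2D, a CDK4 and CDK6 inhibitor (3.58 to 34.0 CPM), the phosphatase CDKN3 (105 to 223 CPM), CKS2 (13.5 to 31.2 CPM) and CDK7, the CDK-activating kinase (63.0 to 103 CPM).

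Whether the changes differed between the species was tested as an interaction, the opossum change minus the mouse change, over genes matched by symbol. Each library holds 1 species, so species and differences between sets of libraries cannot be told apart. Mouse libraries 1 and 2 shared 0 to 2 barcodes with opossum libraries, and mouse library 3 shared 30 to 38. From spermatogonia to spermatocytes AURKA differed (-3.11, SE 0.53, adjusted p = 0.00085): its mouse mean went from 61.0 to 440 CPM and its opossum mean from 50.6 to 59.4 CPM. CCNA1 did not pass (-1.29, adjusted p = 0.18), nor did CCNB1 (-1.24, adjusted p = 0.11), CCNB2 (-0.61, adjusted p = 0.31) or PLK1 (-1.45, adjusted p = 0.077). So 0 of 5 were called higher and 1 lower, beside 30.1% and 19.3% of 8223 genes (30.6% and 22.9% of 6282 genes tested within both species). With library totals the share of higher calls moved from 60.9% to 76.9%. Without mouse library 3 all 5 were called, and without opossum cluster 14 CCNB1 was called as well (-1.74).

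From spermatocytes to round spermatids 4 of the 5 changed more downward in opossum. PLK1 differed by -4.58 (SE 0.60, adjusted p = 3.5e-05), with mouse means of 132 and 181 CPM and opossum means of 22.7 and 1.03 CPM. Opossum round spermatids held 1.88, 5.78 and 0 UMIs of it, under 3 in libraries 1 and 3, so the size of this difference is uncertain. CCNB1 differed by -1.88 (SE 0.50, adjusted p = 0.0072), CCNA1 by -1.33 (SE 0.41, adjusted p = 0.017) and AURKA by -1.18 (SE 0.40, adjusted p = 0.029). CCNB2 did not pass (0.22, adjusted p = 0.72). Of 9095 genes, 22.8% were called lower and 16.9% higher (27.2% and 19.1% of 6307 genes tested within both species). Only 2 calls were left with RLE size factors, at 2000 UMIs per cell, without mouse library 1 or 3, and without the clusters that come mostly from 1 library, where CCNA1 was at -0.54 and AURKA at -0.08. CCNA1 and AURKA also lost their calls without clusters named on fewer than 5 markers, which takes out mouse round spermatid clusters 5 and 9. AURKA also lost its call with counts rounded up (adjusted p = 0.072) and without opossum library 2 or 3 (adjusted p = 0.054 in both).

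At elongation the differences ran the other way. The opossum elongating class includes cluster 6, whose AURKA and CCNB1 levels lay near the spermatocyte means. The part of that cluster alone in these differences was not tested. AURKA differed by 5.42 (SE 0.83, adjusted p = 4.1e-06), CCNB1 by 3.49 (SE 0.77, adjusted p = 0.00049) and CCNB2 by 2.40 (SE 0.72, adjusted p = 0.0085). CCNA1 did not pass (2.06, adjusted p = 0.052). It was called higher in 5 of the alternative settings and changed sign in 2. Thus 3 of the 4 members tested within both species were called higher and 0 lower, beside 25.1% and 20% of 5128 such genes (18.4% and 17.8% of all 8491 genes). CCNB2 lost its call without mouse library 2 (1.94, adjusted p = 0.060) or opossum library 3 (1.96, adjusted p = 0.057). CCNB1 lost its call at 2000 UMIs per cell. PLK1 was too low to test within opossum and entered through its mouse level. Its opossum UMIs in elongating spermatids were 7.52, 0 and 2.44, so its opossum change was not measurable at this depth. Its difference of 5.53 (SE 1.27, adjusted p = 0.00080) stands beside a mouse change of -5.39. It was not called without opossum library 1 (4.41, adjusted p = 0.096). Leaving out clusters mostly from 1 library takes clusters out of both species and leaves cluster 16 alone as opossum elongating spermatids. With 1 such cluster left, the values do not show whether the whole classes differ. CCNB2 was still called higher in that setting (1.85, adjusted p = 0.019) and CCNA1 was called lower (-4.63, adjusted p = 0.0071). AURKA was then at 0.04 (adjusted p = 1), CCNB1 at 0.76 (adjusted p = 0.53) and PLK1 at 2.56 (adjusted p = 0.43).

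**Figure D4:**
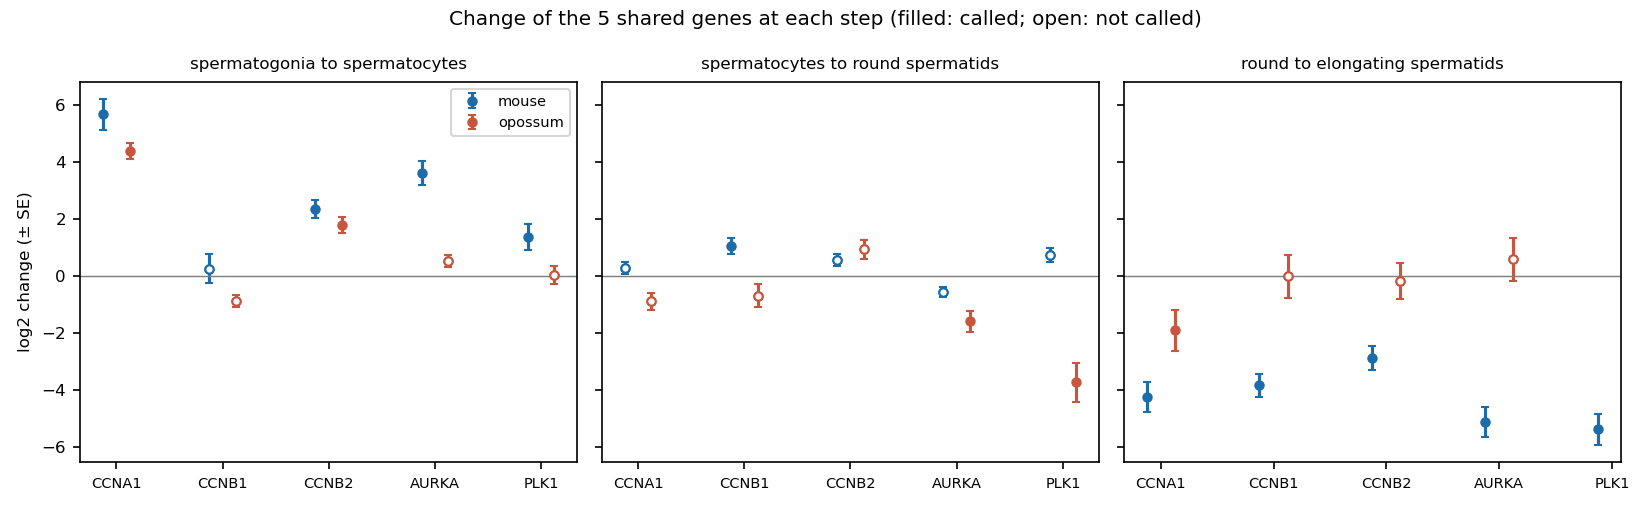
Log2 change of the 5 genes named in both species at each of 3 steps, in mouse and in opossum, with error bars of 1 SE of the edgeR fit. Filled points were called and open points were not, and opossum PLK1 has no point at the third step. At the first step AURKA is at 3.61 in mouse and 0.52 in opossum, and CCNA1 at 5.67 and 4.39.

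Of the list genes in the species comparison, SPDYA, an activator of CDK2 that is not a cyclin, differed by -4.24 at the first step, with mouse means of 29.8 and 371 CPM and opossum means of 60.1 and 60.2 CPM. CDKN1A differed by -3.78 and CCNG1 by 3.94. PLK2 was called as well, with opossum spermatogonia at no more than 2.26 CPM. In all, 15 of 57 were called higher and 17 lower there, beside 30.1% and 19.3% of all genes. At the second step 6 of 56 were called higher and 21 lower, beside 16.9% and 22.8%. CCND3 differed by -5.20, with opossum means of 9.32 and 7.99 CPM beside its mouse rise, and the checkpoint kinase CHEK1 by -5.77. MYBL2 and PCNA were called too, both under 3 UMIs in opossum round spermatids. At the third step 34 list genes were tested within both species, of which 22 were called higher and 4 lower, beside 25.1% and 20% of such genes. Of the other 18, which were too low to test within at least 1 species, 4 were called higher and 0 lower, beside 8.3% and 14.5%. CDKN2D differed by 8.78: its mouse mean fell from 83.8 to 1.88 CPM, and its opossum mean rose from 3.58 to 34.0 CPM. CDK7 differed by 5.69, CCNF, an ubiquitin ligase subunit with a cyclin box, by 4.84, and PCNA was called as well, though it was too low to test within opossum.

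In opossum bulk testis, levels are in TPM, a unit scaled by gene length and by the total of the library. Fewer cells of a type and less RNA per cell cannot be told apart in these samples. At 1 month CCNA1 was at 1.26 and 0.80 TPM, and at 2 months at 2.51, 36.1, 25.3 and 0.70 TPM in replicates 1 to 4. At 3 months it was at 135, 109, 114 and 132 TPM, at 4 months at 51.1, 69.2 and 121 TPM, and in adults between 14.9 and 79.6 TPM with a median of 30.2. The 2-month libraries fell apart: replicates 2 and 3 were high, while replicate 4, rRNA depleted like them, and replicate 1, polyA selected, were near the 1-month level. All libraries from 3 months on lay above those of 1 month. CCNA1 rose from 2 to 3 months (log2(TPM + 1) change 3.90, SE 1.01, adjusted p = 0.011, limma) and from 1 month to adult (4.09, SE 0.89, adjusted p = 0.0011).

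CCNB1 was highest at 1 month. It was at 429 and 520 TPM there, above all other libraries, and at 82.9, 40.2, 29.4 and 26.2 TPM at 2 months. From 3 months on it was at 99.8 to 125 TPM, then 50.05, 73.3 and 214 TPM, and in adults between 14.5 and 160 TPM with a median of 47.4. CCNB1 fell from 1 to 2 months (-2.35, SE 0.68, adjusted p = 0.032) and from 1 month to adult (-3.22, SE 0.52, adjusted p = 8.8e-05). The ratio of CCNA1 to CCNB1, both in TPM, was 0.0029 and 0.0015 at 1 month and 0.030, 0.90, 0.86 and 0.027 at 2 months. It was 1.03 to 1.16 at 3 months, 0.56 to 1.02 at 4 months and 0.34 to 1.31 in adults.

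AURKA was at 24.7 and 27.7 TPM at 1 month, 11.7, 38.4, 29.4 and 6.10 TPM at 2 months and 158 to 259 TPM at 3 months. At 4 months it was at 52.1, 95.2 and 104 TPM, and in adults between 12.5 and 168 TPM with a median of 43.0. PLK1 was at 3.74 and 7.49 TPM, then 0.81, 9.80, 6.44 and 3.13 TPM, then 25.4 to 26.4 TPM at 3 months. It was at 12.3, 16.2 and 2.44 TPM at 4 months and between 0.17 and 11.6 TPM in adults. For both genes every 3-month library was above every library of 2 months. TPM is not adjusted for preparation. Of the 4 libraries of 2 months 3 were rRNA depleted, while all of 3 months were polyA selected. In limma, with preparation as a term, AURKA and PLK1 rose from 2 to 3 months (AURKA 2.83, SE 0.80, adjusted p = 0.017, and PLK1 3.00, SE 0.89, adjusted p = 0.022). CCNB2 was at 71.6 and 79.6 TPM at 1 month, 7.09 to 25.4 TPM at 2 months, 91.5 to 131 TPM at 3 months, 27.1 to 115 TPM at 4 months and 10.3 to 157 TPM in adults. Its 3-month libraries also lay above all 2-month libraries, but it was called at no step (1.71 from 2 to 3 months, adjusted p = 0.093). Without the preparation term it was called from 1 to 2 months (-2.18, adjusted p = 0.034) and from 2 to 3 months (2.68, adjusted p = 0.0024). The rRNA-depleted adult library was the lowest of the 7 adult libraries for CCNA1, CCNB1, CCNB2 and AURKA.

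From 1 to 2 months 0 of 5 were called higher and 1 lower, beside 7.22% and 3.88% of 19300 genes. From 2 to 3 months 3 were called higher and 0 lower, beside 15.0% and 8.04%. From 3 to 4 months 0 were called, beside 0% of all genes in each direction by limma, with 1686 genes at an unadjusted p under 0.05. From 4 months to adult 0 were called, beside 0.0259% higher and 0% lower, with 1836 genes at an unadjusted p under 0.05. From 1 month to adult 1 was called higher and 1 lower, beside 29.4% and 15.4%. No member was called from 2 to 3 months without the polyA-selected 2-month replicate 1, when CCNA1 was at 2.06 (adjusted p = 0.58), AURKA at 1.09 and PLK1 at 1.65, and 141 genes in all were called. CCNB1 from 1 to 2 months was not called in polyA libraries only (-2.50, adjusted p = 0.11), with a replicate block (-2.23, adjusted p = 0.084), without 1-month replicate 1 (-2.49, adjusted p = 0.12) or 2 (-2.21, adjusted p = 0.19), or without 2-month replicate 1 (-2.13, adjusted p = 0.19).

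**Figure D5:**
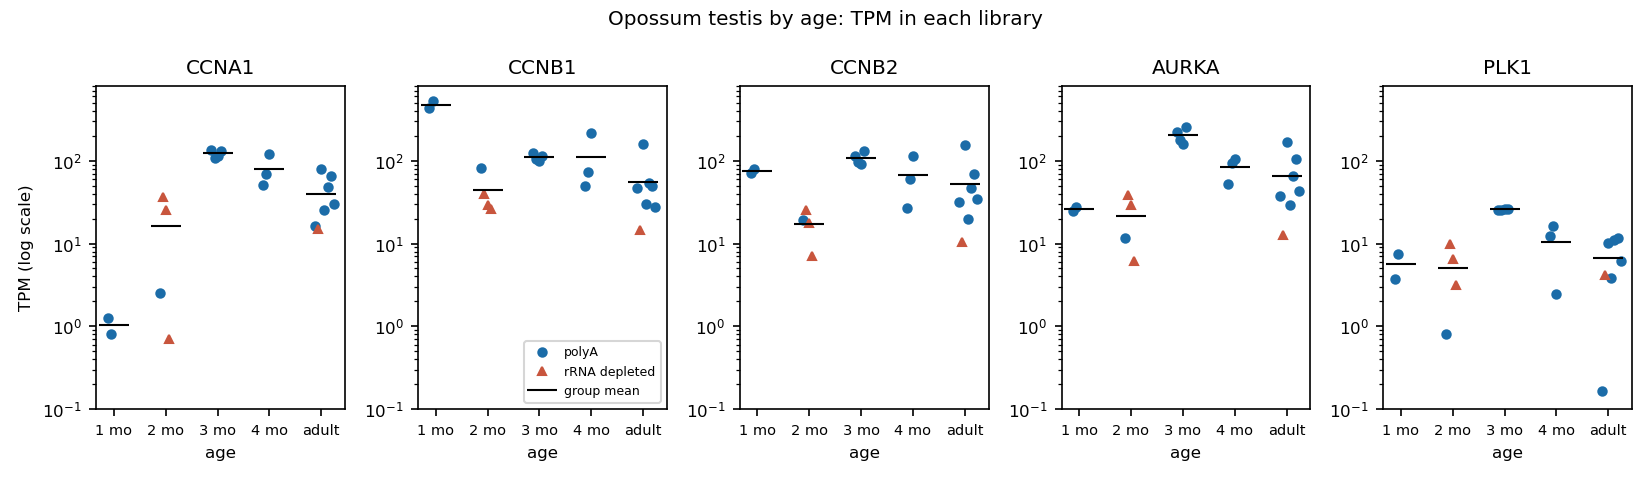
TPM of the 5 genes in 20 opossum bulk libraries by age, on a log axis, with 1 point per library (circles polyA selected, triangles rRNA depleted) and a line at the group mean. CCNB1 is highest at 1 month (429 and 520 TPM), and CCNA1, AURKA and PLK1 at 3 months (109 to 135, 158 to 259 and 25.4 to 26.4 TPM).

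The summed TPM of the 23 spermatogonial markers found (of 32 listed) was 386 to 419 at 1 month, where CCNB1 was highest, 746 to 863 at 2 months and 503 to 1539 in adults. The summed TPM of the 24 spermatocyte markers found (of 42 listed) was 258 to 272 at 1 month, 267 to 2700 at 2 months, 7228 to 8580 at 3 months, 3663 to 6592 at 4 months and 1487 to 6280 in adults. MEI1 and YBX2 were listed at 0 in every library. The 10 round spermatid markers found were at 4.51 to 4.54 TPM in sum at 1 month and 1258 to 1544 at 3 months. The 14 elongating spermatid markers were at 27.1 to 28.4 TPM at 1 month, with a median of 5660 at 3 months, where CCNA1, AURKA and PLK1 were highest, and of 20035 in adults. The 13 peritubular or stromal markers were at 2395 to 3338 TPM at 1 month and 117 to 741 in adults. The part of these cell types in the levels of the members was not tested.

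Among 56 list genes tested in bulk, 7 were called higher and 3 lower from 1 to 2 months, beside 7.22% and 3.88% of all genes. CNTD1 rose from 0.94 to 43.8 ± 37.4 TPM (SD, n = 4, from 6.50 to 88.8 TPM) and CCND3 from 1.49 to 15.8 ± 9.28 TPM (from 9.31 to 29.6 TPM). CDKN1A fell from 433 to 35.0 TPM and PLK2 from 196 to 11.4 TPM. From 2 to 3 months 12 were called higher and 9 lower, beside 15.0% and 8.04%, with the transcription factors E2F8 (9.95 ± 10.9 to 84.9 TPM) and MYBL1, a regulator of male meiosis (20.4 ± 18.7 to 107 TPM), and the AURKA activator TPX2 (47.6 ± 33.98 to 319 TPM) and INCENP (15.4 ± 10.95 to 61.9 TPM) among the higher. From 1 month to adult 11 were called higher and 9 lower, beside 29.4% and 15.4%, with AURKB, the mitotic kinase of the passenger complex, going from 174 to 18.7 ± 14.6 TPM (n = 7) and CDKN2D from 1.20 to 35.0 TPM.

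The genes whose pattern was most like that of CCNA1 were sought among 4420 matched genes, by the lower of 2 Pearson coefficients of log2(CPM + 1), over 25 class-by-library sums in mouse and 27 in opossum. These sums share libraries and differ in depth, so the coefficients are descriptions. They were CCDC39 (r = 0.92 in mouse and 0.91 in opossum), DNAI2 (0.90 and 0.88) and DNAI3 (0.87 and 0.90). All 3 encode proteins of ciliary axonemes or of their assembly. CCDC39 went from 10.9 CPM in mouse spermatogonia to 278 ± 76.9 CPM (SD, n = 3) in spermatocytes and 193 ± 30.6 CPM in round spermatids. In opossum it went from 26.6 CPM to 210 ± 15.3 and 175 ± 51.3 CPM in the same classes. DNAI3 was at 98.5 CPM in mouse spermatocytes and 90.7 CPM in round spermatids, and at 553 and 127 CPM in those of opossum.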

How the data were processed

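Single-cell RNA was measured in 6 libraries and bulk RNA in 20. The deposited single-cell values are estimated counts of UMIs, with decimals in most entries. Cell Ranger 6.0.1 is listed in the submitters' processing notes, and the step that made the decimals is not given in the sources used here. Each bulk table gives coverage (used only for depth), FPKM and TPM of every gene, per the file headers; HISAT2 2.2.1, SAMtools 1.12 and StringTie 2.1.4 are listed in the submitters' processing notes. The notes list the mouse build GRCm39 also for opossum samples, so opossum coordinates are those of the bulk tables with no build named.

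A barcode needed 1000 UMIs and 500 genes, and the 8% with the highest doublet scores in each library were removed. This left 7487, 7208 and 8715 mouse cells and 5132, 7476 and 7405 opossum cells. Each species was clustered (scanpy 1.11.5, leidenalg 0.10.2, 2000 variable genes, 30 components, resolution 1), and a cluster needed at least 3 markers at 1.5-fold to be named. Counts of at least 20 cells were summed per library and class, rounded, and tested with edgeR 4.0.16 (TMM, filterByExpr, quasi-likelihood) with the library as a block, since both classes come from 1 suspension. Bulk log2(TPM + 1) of 19300 genes was tested with limma 3.58.1, with age and preparation as terms. For edgeR results the SE was taken as the size of the change over the square root of F, an approximation. P-values were adjusted by Benjamini-Hochberg over all genes tested. Alternatives used DESeq2 1.42.0, RLE factors, other filters and clusterings, and each library left out. The statistics were tested on simulated data. In these, equal numbers of genes were raised and lowered, so they do not test the scaling between classes. Bulk libraries had 2.90 to 7.12 aligned gigabases; their read numbers are unknown, so no counting interval is given.

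The 10 members and the lists were chosen with earlier results of these data known. All members are named in every comparison, and of the 77 list genes up to 4 called genes with the largest change and at least 10 CPM or 5 TPM in 1 group. Same-numbered bulk libraries were not treated as pairs, since only 7 of 29 pairs correlated above 0.1. The correlations ran from -0.285 to 0.672 (replicate 3 of 4 months and adult), with 0.620 for replicate 1 of 2 months and adult. Where the labels do not say that libraries come from separate animals, p-values measure only the spread between these libraries, which may be technical. The unit of upper limits for a count of 0 is 3 UMIs, for counting error only.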

Additional observations from a re-analysis of the deposited data

Results flagged for a closer look

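In adult opossum bulk testis, replicate 3 stood apart for the B-type cyclins: CCNB1 was at 159.62 TPM and CCNB2 at 156.68 TPM there, further from the other 6 adult libraries than Dixon's 95% limit. It was also the highest adult library for CCNA1 (79.6 TPM) and AURKA (168 TPM), within that limit, so high values there were not particular to B-type cyclins. Groups of 4 to 10 libraries were tested 15 times, and chance flags about 1 in 20.

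Differences between the species in the change of a member, opossum minus mouse on the log2 scale, passed the interaction test in 8 of the 14 cases where both species could be tested. Of all genes tested within both species, 30.6% were called higher and 22.9% lower at the first step. The shares were 19.1% and 27.2% at the second step, and 25.1% and 20% at the third. Calls in either direction were thus common among all genes. The count of 8 of 14 does not by itself set the members apart, and it was not tested against these shares. From spermatogonia to spermatocytes AURKA differed by -3.11. From spermatocytes to round spermatids CCNA1 differed by -1.33, CCNB1 by -1.88, AURKA by -1.18 and PLK1 by -4.58. At elongation CCNB1 differed by 3.49, CCNB2 by 2.40 and AURKA by 5.42. The opossum class there includes cluster 6, with AURKA and CCNB1 near their spermatocyte levels. Without clusters mostly from 1 library, AURKA (-0.08) and CCNA1 (-0.54) were not called at the second step, nor were AURKA (0.04) and CCNB1 (0.76) at elongation. At elongation that setting left cluster 16 as the only opossum cluster of elongating spermatids, so it does not show whether the whole classes differ. PLK1 had a value of 5.53 at elongation, which is not counted here because opossum PLK1 was too low to test at that step.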

How the results depend on the processing

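Values are members called or log2 changes. With library totals only, 4 opossum members were called at the second step and 2 at the third. CCNB1 (mouse, first step) was then at -0.63, CCNE2 (mouse, the third) at -0.57, PLK1 (opossum, first) at -0.25, AURKA (opossum, the third) at -0.92, and the species difference of CCNB2 at the first step at 0.11. With 2000 UMIs per cell, 2 members were called at the mouse second step and 2 in the species difference at the second and the third steps, with CCNE2 (mouse, the third) at -0.72 and the species difference of CCNA1 (the third) at -1.37. Resolution 2 gave CCNE2 -0.45, opossum PLK1 -0.56 and 3 species calls at the first step. Clustering with the members gave mouse CCNB1 -0.050, opossum PLK1 -0.57, 3 species calls at the first step and CCNB2 -0.065 at the second. Counts rounded up gave opossum PLK1 -0.094, CCNB1 0.27 and 0 calls at elongation, and 2 species calls at the first step. RLE factors gave 2 species calls at the second step. Without clusters mostly from 1 library, opossum elongating spermatids were cluster 16 alone, and mouse CCNA1 was at -0.16 at the second step. Then 2 opossum members were called at elongation, with AURKA at -4.10. In the species difference 2 calls each were left at the second and the third steps, with CCNB2 at -0.26 and CCNA1 at -4.63. Without clusters named on fewer than 5 markers, mouse CCNA1 was at -0.23 at the second step and 2 species calls were left at that step. Without opossum cluster 14, PLK1 was at -0.018 and 2 species calls were made at the first step. These 4 class and scaling choices were added after seeing the data. With no replicate block, 0 opossum members were called at elongation.

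In bulk, a replicate block left 0 members called from 1 to 2 months and 1 from 2 to 3 months, with CCNB1 at -0.00085. Without the preparation term 2 were called from 1 to 2 months, with AURKA at -0.58. In polyA libraries only, 0 were called from 1 to 2 months, with AURKA at -1.09, and PLK1 was at 0.0094 from 1 month to adult. FPKM gave AURKA -0.12 from 1 to 2 months and CCNB1 -0.074 from 2 to 3 months.

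With 1 library left out at a time, calls ranged from 2 to 5 (mouse, second step), 0 to 1 (opossum, elongation), 1 to 5 and 2 to 4 (species difference, first and second step), 0 to 1 (1 to 2 months) and 0 to 3 (2 to 3 months). Changes that turned ranged from -0.35 to 0.99 (mouse CCNB1, first step), -0.92 to 0.17 (mouse CCNA2, second), -0.36 to 0.21 (opossum PLK1, first), -0.66 to 0.30 and -0.85 to 0.040 (opossum CCNB1 and CCNB2, elongation). In bulk they ranged from -0.19 to 1.80 (AURKA) and -1.33 to 0.43 (PLK1) from 1 to 2 months, -0.86 to 0.18 (CCNB1, 3 to 4 months), -0.92 to 0.11 (CCNB2, 4 months to adult) and -0.56 to 0.28 (PLK1, 1 month to adult). The causes were not tested. Of 1150 values for single genes, 1025 kept direction and side of the threshold. Depth limits opossum spermatogonia most, where 3 UMIs are worth up to 6.56 CPM.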

Other observations

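Mouse cells of the unnamed class held members too. They are in no comparison, and their class was not worked out: CCNA1 was at 177, 390 and 125 CPM in libraries 1, 2 and 3, from 583, 750 and 130 cells.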
